A study of Mus musculus with 10 samples.

Results

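Cxcl9, Cxcl10, Cxcl11 and Ccl5 are chemokine genes whose proteins draw activated lymphocytes and other leukocytes into tissue. The 4 genes were taken by symbol from a table of 23370 gene symbols. Where a symbol had more than 1 transcript, the transcript of the highest mean RPKM (reads per kilobase of RNA and per depth of the library) was used. All 4 were among the 12168 genes that reached 1 RPKM in at least 2 of 10 libraries. RNA of mouse embryonic fibroblasts (MEFs) was sequenced in 2 arms, called naive and pretreated in the labels. Each arm had 5 libraries, of 0, 1, 2, 4 and 6 h. The MEFs of both arms were C57BL/6 cells carrying an H3.3b-HA knock-in, that is, a cDNA for the histone variant H3.3 with an HA tag stood in place of the H3f3b gene. Untagged cells were not analysed here. IFN-β, a type I interferon, is named at 100 U per ml for the series as a whole. The sources used here do not say how long, at which dose and how far before 0 h the pretreated cells had met interferon. The hours were taken to count from the addition of IFN-β. Libraries held between 83.91 and 268.5 M counts (M, mega), and those of 4 and 6 h were the deepest of each arm.

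CXCL9, CXCL10 and CXCL11 lack the ELR motif of the neutrophil-attracting CXC chemokines and share 1 receptor, CXCR3, which is found on activated T cells and natural killer cells. CXCL9 is classically induced by interferon-gamma, CXCL10 by both interferon types and by NF-kB, and CXCL11 binds CXCR3 with high affinity and also the atypical receptor ACKR3. CCL5, also known as RANTES, acts on receptors of the CC class, and its promoter is known to be bound by interferon regulatory factors and NF-kB. Type I interferon acts through JAK kinases and a complex of STAT proteins with IRF9, which binds the interferon-stimulated response element (ISRE). A second element bound by STAT proteins is the gamma-activated site (GAS).

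The 3 CXCR3 ligand genes lie side by side on the minus strand of chromosome 5 within 41.9 kb (mm10). Cxcl9 (NM_008599) covers chr5:92321331-92328079, Cxcl10 (NM_021274) chr5:92346639-92348889 and Cxcl11 (NM_019494) chr5:92359545-92363277, each with 4 exons. Ccl5 (NM_013653) lies apart from them on the minus strand of chromosome 11, at chr11:83525779-83530518, with 3 exons. RefSeq's promoter table (GRCm38.p6) matched 2 of the 4 members, and the 250 bases before the start are shown for both. Capitals mark matches to the searched motifs, which were the ISRE core (GAAA, any 2 bases, GAAA), the GAS core TTCNNNGAA and the NF-kB motif. Both strands were searched from 250 bases before to 50 bases after the start, and no 2 matches overlapped. The Cxcl9 stretch is chr5:92328080-92328329 and the Cxcl10 stretch chr5:92348890-92349139, both minus strand, written 5′ to 3′.
Cxcl9: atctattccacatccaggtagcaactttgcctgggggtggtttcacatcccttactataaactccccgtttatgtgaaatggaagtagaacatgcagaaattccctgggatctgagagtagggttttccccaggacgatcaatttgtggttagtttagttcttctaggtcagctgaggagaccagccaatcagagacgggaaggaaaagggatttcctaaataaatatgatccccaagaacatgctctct
Cxcl10: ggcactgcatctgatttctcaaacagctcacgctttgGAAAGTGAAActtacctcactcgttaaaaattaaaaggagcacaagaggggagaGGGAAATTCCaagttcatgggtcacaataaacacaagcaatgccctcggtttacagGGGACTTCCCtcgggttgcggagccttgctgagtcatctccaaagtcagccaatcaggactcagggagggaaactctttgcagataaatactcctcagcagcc
The Cxcl10 window held 1 ISRE match, GAAAGTGAAA at -213 to -204 from the start, and 2 NF-kB matches, GGGAAATTCC at -159 to -150 and GGGACTTCCC at -103 to -94. In the Cxcl9 window no exact match to the searched motifs was found, and near matches were not searched for. Of the 32851 promoters of the same length in the table, 3.44% held the ISRE core, 8.3% the GAS core and 4.51% the NF-kB motif. These matches describe sequence, no binding was measured, and their part in the RNA levels was not tested.

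Cxcl11 needs a caution in this strain. RefSeq lists the gene of the C57BL/6J reference as a transcribed pseudogene, while the count table held it under both a coding (NM_019494) and a noncoding (NR_038116) transcript. The counts of these transcripts differed by at most 2 reads in any library, so the values below hold under either name. The first coding exon is shown because the coding annotation leaves out 2 bases of it, in capitals (chr5:92363155-92363214, minus strand, GRCm38).
Cxcl11: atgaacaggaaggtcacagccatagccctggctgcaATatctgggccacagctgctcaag
With these 2 bases, at positions 37 and 38 of the coding sequence, the frame meets a stop after 36 codons. Without them it runs for 99 codons. The RNA levels of Cxcl11 are therefore reported as RNA only.

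Before the later time points are described, 1 feature of the libraries has to be given. Within the pretreated arm, the 1 h and 4 h libraries stood apart from those of 0, 2 and 6 h. H19, an imprinted noncoding RNA, read 43.7 and 44.4 RPKM in them against 9.19 to 9.78 RPKM in the other three. Igfbp2, which codes for a binding protein of insulin-like growth factors, read 21.2 and 21.4 against 3.81 to 5.34 RPKM, and Fmod, which codes for the matrix protein fibromodulin, 13.5 and 11.3 against 3.34 to 5.03 RPKM. In naive cells each of these genes read lower at 4 and 6 h than at 0 to 2 h, with H19 at 53.4 and 55.2 against 89.5 to 123 RPKM. The 4 tests on the members are also given without the pretreated 1 h and 4 h libraries. The exception is Cxcl11 in the test of whether the change from 0 h differed between the arms. Ratios and counts at 1 h or 4 h in the pretreated arm rest on those libraries. Each group has 1 library, so the tests below take times and arms as repeats. Their p-values measure how far differences vary across times and arms, not across cultures. Intervals on single libraries are 95% intervals of counting error only. A change in the share of responding cells and a change in RNA per cell cannot be told apart in such bulk samples.

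All 4 genes rose after IFN-β was added. Over the mean of 2, 4 and 6 h against 0 h in both arms, edgeR's quasi-likelihood test with Benjamini-Hochberg adjustment called 4 of 4 members higher, against 19.9% of all genes called higher, 20% called lower and 39.9% called in either direction. The log2 fold changes were 8.04 for Cxcl10 (SE 1.24, adjusted p = 0.00577), 6.07 for Cxcl11 (SE 1.01, adjusted p = 0.00684), 5.55 for Cxcl9 (SE 0.35, adjusted p = 0.00440) and 2.35 for Ccl5 (SE 0.44, adjusted p = 0.00871). The fitted value of Cxcl11 depends on the prior count, since its naive 0 h library had 0 counts. Genes below 1 RPKM in both 0 h libraries could pass the filter only through stimulated libraries, so the filter favours rises among them. Cxcl9 and Cxcl11 were such genes, and the lists below hold others. With no filter, all 4 members were still called higher. The calls of 3 members needed the naive 0 h library. Without it, edgeR's adjusted p was 0.0571 for Cxcl10, 0.0593 for Cxcl11 and 0.0764 for Ccl5, Cxcl9 stayed past the threshold, and the count over all genes was 8 in place of 4859. With the pretreated 1 h and 4 h libraries left out, all 4 members were called, with adjusted p between 0.0165 and 0.0218. No library was labelled as unstimulated at later hours, so IFN-β and time in culture cannot be told apart.

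**Figure D1:**
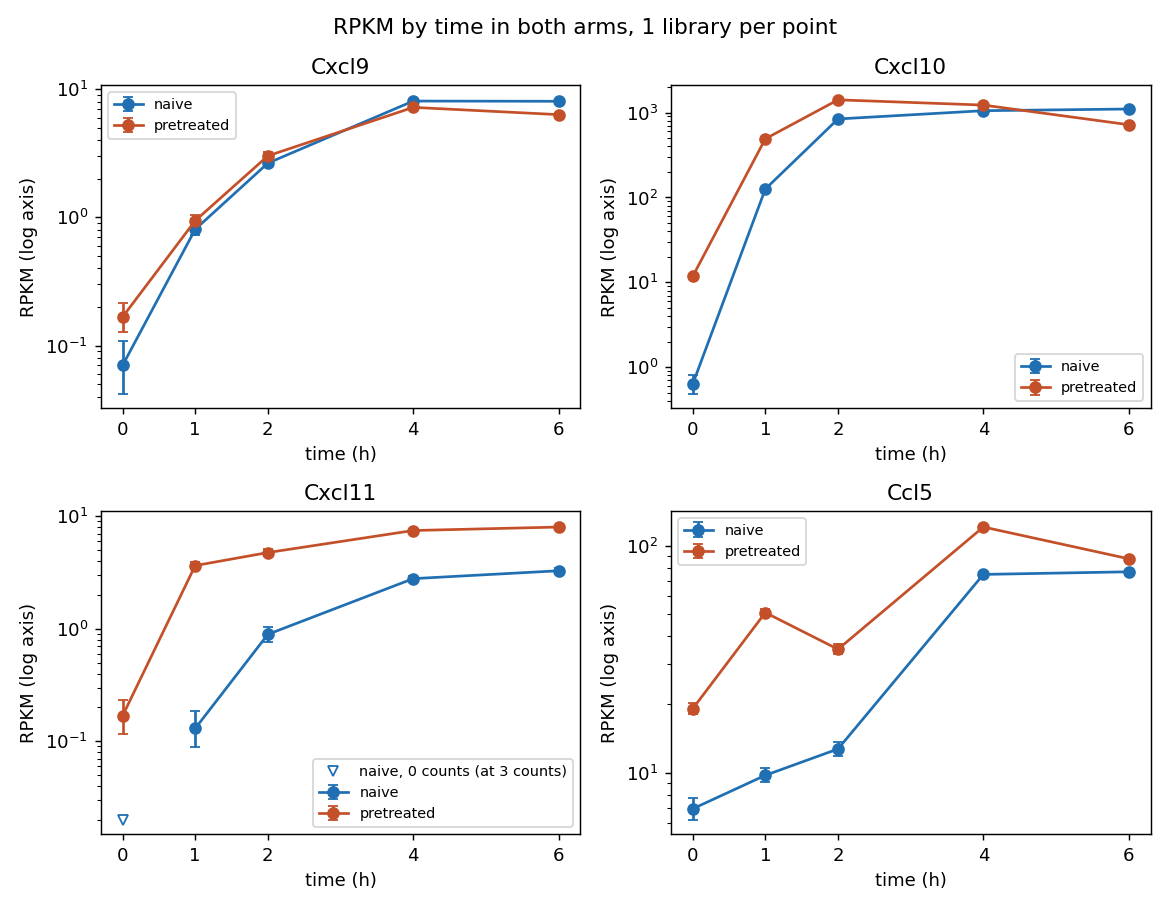
RPKM (log axis) of the 4 genes against time in h, with 1 library per point, the naive arm in blue and the pretreated arm in orange. Bars are 95% counting intervals and the open triangle is Cxcl11 in the naive 0 h library, which had 0 counts and is drawn at the level of 3 counts; the Cxcl9 curves lie close together from 1 h on, while Cxcl11 lies higher in the pretreated arm at every time.

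Cxcl10 was the member of by far the highest level once cells were stimulated. In the naive arm it read 0.631, 126, 840, 1051 and 1101 RPKM at 0, 1, 2, 4 and 6 h. In the pretreated arm the values were 11.7, 490, 1412, 1225 and 719 RPKM. The naive course rose at every step and the pretreated course turned down after 2 h, so the arms crossed between 4 and 6 h. Among the 12168 genes, Cxcl10 moved from rank 11824 to rank 20 by RPKM in the naive arm, and its best rank was 14, in the pretreated 2 h library. The naive rise to 6 h was 1744-fold (interval 1368 to 2259), while the pretreated rise from its higher start was 61.3-fold (58.4 to 64.4). From 2 to 6 h Cxcl10 went to 1.31-fold of its level in naive cells and to 0.509-fold in pretreated cells, a comparison that uses neither the 1 h nor the 4 h library.

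Cxcl9 stayed low throughout, though its level rose strongly from 0 h. It read 0.07, 0.807, 2.65, 8.09 and 8.06 RPKM in naive cells and 0.167, 0.943, 3.02, 7.22 and 6.34 RPKM in pretreated cells. The arms followed each other closely from 1 h on, and the naive level did not move beyond counting error between 4 and 6 h (0.996-fold, 0.961 to 1.03). The naive rise to 6 h was 115-fold (73.8 to 192), from only 19 counts at 0 h. Per length, Cxcl10 stood 130 to 317 times above Cxcl9 in the naive libraries of 2, 4 and 6 h and 113 to 467 times in the pretreated ones.

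Cxcl11 was not counted in naive cells at 0 h. It then read 0.13, 0.891, 2.78 and 3.27 RPKM at 1, 2, 4 and 6 h. In pretreated cells it read 0.168, 3.63, 4.74, 7.45 and 7.99 RPKM. The level rose at every step in both arms, and every pretreated library from 1 h on lay above every naive one. With the 0 counts at 0 h set to 3 counts (0.0202 RPKM), naive cells at 6 h were at least 162-fold higher (131-fold at the exact 95% limit of 0 counts), and the pretreated rise to 6 h was 47.7-fold (34.1 to 69.0). Cxcl9 exceeded Cxcl11 per length at 1 to 6 h in naive cells, by 2.46 to 6.21 times, whereas in pretreated cells Cxcl9 stood at 0.260 to 0.994 times the Cxcl11 level at all 5 times.

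In naive cells, Ccl5 was readily counted before stimulation, unlike the CXCR3 ligands, and rose late. It read 6.92, 9.73, 12.7, 74.7 and 76.7 RPKM in naive cells. In pretreated cells the values were 19.1, 50.7, 34.9, 121 and 87.5 RPKM. Naive Ccl5 had gained only 1.84-fold (1.61 to 2.09) by 2 h and then rose 5.88-fold (5.45 to 6.34) between 2 and 4 h. H19, Igfbp2 and Fmod fell in naive cells over the same step, and the part of this in the Ccl5 rise was not tested. The 2 highest points of the pretreated course relative to their neighbours in time, 1 h and 4 h, are the libraries that H19, Igfbp2 and Fmod set apart, and the part of that difference in the Ccl5 values was not tested. Over the pretreated libraries of 0, 2 and 6 h alone Ccl5 rose at each step, and its 2 h gain was 1.83-fold (1.70 to 1.97).

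**Figure D2:**
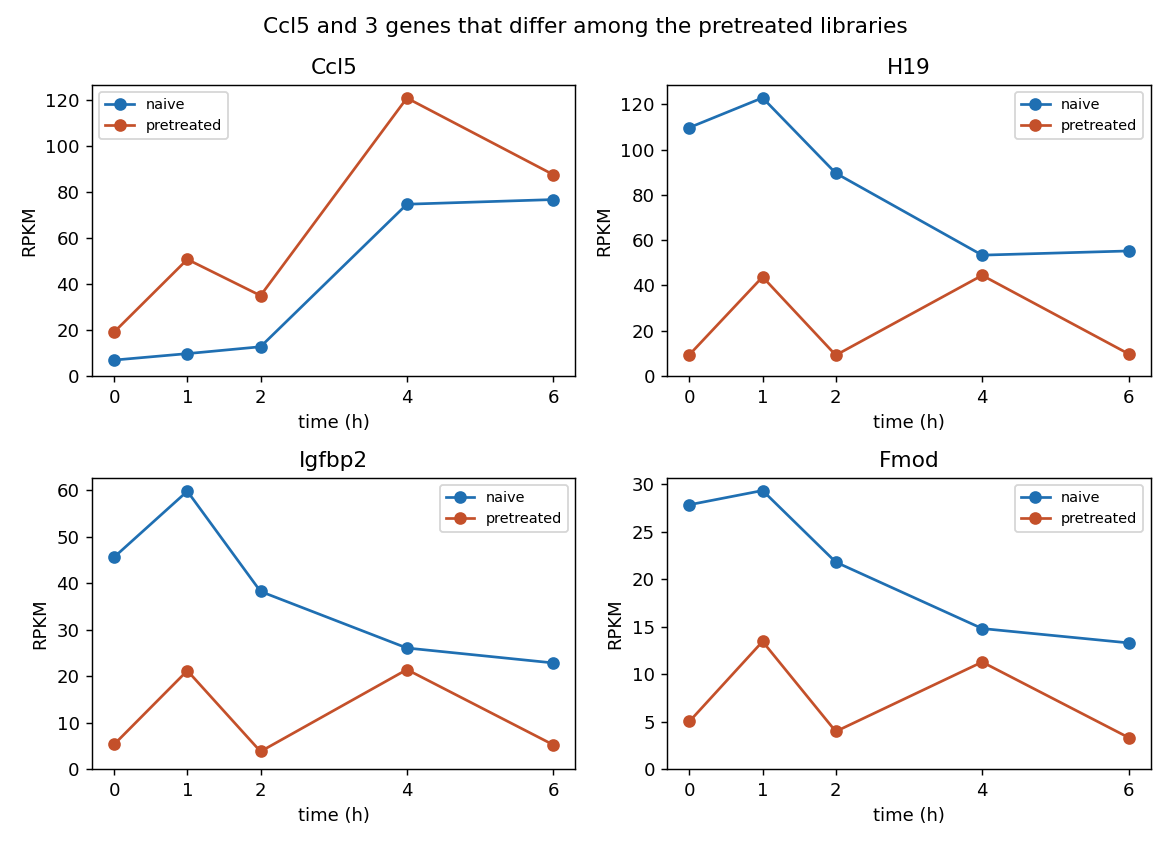
RPKM of Ccl5, H19, Igfbp2 and Fmod against time in h, 1 library per point, naive arm in blue and pretreated arm in orange. In the pretreated arm all 4 panels show 1 h and 4 h above the libraries beside them, with H19 at 43.7 and 44.4 RPKM there against 9.19 to 9.78 RPKM at 0, 2 and 6 h.

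The order in which the genes approached their highest level differed as well. At 2 h in naive cells, Cxcl10 had reached 76.3% of its highest RPKM in the arm, Cxcl9 32.8%, Cxcl11 27.3% and Ccl5 16.6%. At 1 h in pretreated cells the shares were 34.7% for Cxcl10, 13.1% for Cxcl9, 45.5% for Cxcl11 and 42.0% for Ccl5, all 4 from a library that stands apart. At 6 h in pretreated cells, Cxcl11 was at its highest, Cxcl9 at 87.8%, Ccl5 at 72.4% and Cxcl10 at 50.9% of theirs. In naive cells all 4 genes were at 99.6% or more of their highest level at 6 h. These orders rest on single libraries and were not tested.

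**Figure D3:**
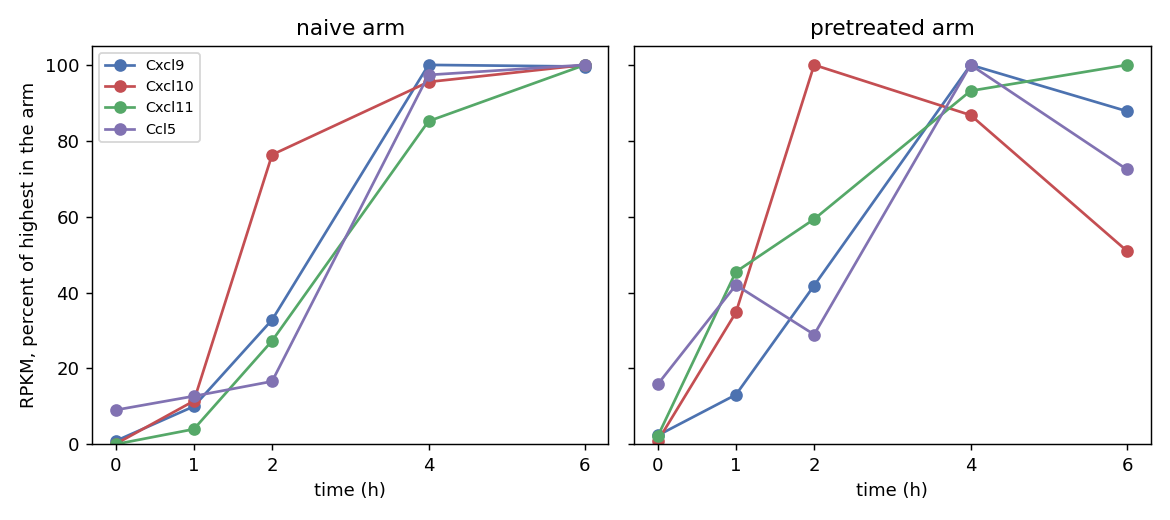
RPKM as a percent of the highest value in the same arm against time in h, for the naive arm (left) and the pretreated arm (right), 1 library per point. In naive cells Cxcl10 leads at 2 h with 76.3% and the other 3 genes lie between 16.6% and 32.8%; in pretreated cells Cxcl10 has fallen to 50.9% at 6 h.

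In the first hour, both arms together, the log2 changes from 0 to 1 h were 5.84 for Cxcl10 (SE 1.15), 4.07 for Cxcl11 (SE 1.03), 2.85 for Cxcl9 (SE 0.35) and 1.05 for Ccl5 (SE 0.47). None passed edgeR's test after adjustment (adjusted p = 0.260, 0.342, 0.164 and 0.447). It called 0 genes in all (0% of those tested), with 1383 at an unadjusted p under 0.05, while DESeq2 called 236 and limma 5 or 1, depending on the pseudocount. DESeq2 called Cxcl10, Cxcl9 and Cxcl11 among them (adjusted p = 2.82e-05, 6.8e-15 and 0.0282). Without the pretreated 1 h and 4 h libraries the values were 5.47 for Cxcl10, 2.83 for Cxcl9, 2.08 for Cxcl11 and 0.25 for Ccl5. The 1 h term of that fit rests on the naive library alone, so these values no longer describe both arms at 1 h. Counted in single libraries at 2-fold or more on the log2(RPKM + 1) scale, 1 of 4 members was higher at 1 h in naive cells, where 2.02% of all genes were. The numbers were 2 of 4 at 2 h (3.95%), 4 of 4 at 4 h (5.71%) and 4 of 4 at 6 h (6.2%). In pretreated cells, against their own 0 h library, they were 3, 3, 4 and 4 of 4 (1.31%, 3.6%, 4.19% and 3.15% of all genes).

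How the pretreated cells differed before restimulation was read from 1 library per arm. At 0 h, Cxcl10 was 18.6-fold higher in pretreated cells (14.5 to 24.2, from 65 and 1652 counts). Ccl5 was 2.76-fold higher (2.45 to 3.12) and Cxcl9 2.39-fold higher (1.41 to 4.23, from 19 and 62 counts). Cxcl11 had 34 counts against 0, at least 8.29-fold higher when the naive library is set at 3 counts. All 4 genes were thus above the naive level, 2 of 4 by 2-fold or more on the log2(RPKM + 1) scale, as were 2.56% of all genes. On that scale the difference of Cxcl9 was only 0.13, because both values were far below the pseudocount. Set against the naive 6 h level, the pretreated 0 h level was 93.8-fold lower for Cxcl10, 48.3-fold for Cxcl9, 19.5-fold for Cxcl11 and 4.02-fold for Ccl5.

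After stimulation the distance between the arms shrank with time for Cxcl10, from 3.91-fold at 1 h (3.85 to 3.97) to 1.68-fold at 2 h and 1.17-fold at 4 h, and at 6 h pretreated cells were lower, at 0.653-fold (0.650 to 0.657). For Cxcl11 the ratios of pretreated to naive were 27.9 at 1 h (19.5 to 41.3), 5.33 at 2 h, 2.68 at 4 h and 2.45 at 6 h (2.30 to 2.61). For Ccl5 they were 5.21 at 1 h (4.83 to 5.64), 2.75 at 2 h, 1.62 at 4 h and 1.14 at 6 h. Cxcl9 ran from 1.17 at 1 h (1.01 to 1.35) and 1.14 at 2 h to 0.893 at 4 h and 0.787 at 6 h (0.758 to 0.818). Cxcl11 was the member that kept a ratio above 2 at all matched times. On the log2(RPKM + 1) scale, 3 of 4 members were 2-fold or more higher in pretreated cells at 1 h (1.55% of all genes), 2 of 4 at 2 h (1.55%), 1 of 4 at 4 h (0.238%) and 1 of 4 at 6 h (0.156%).

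**Figure D4:**
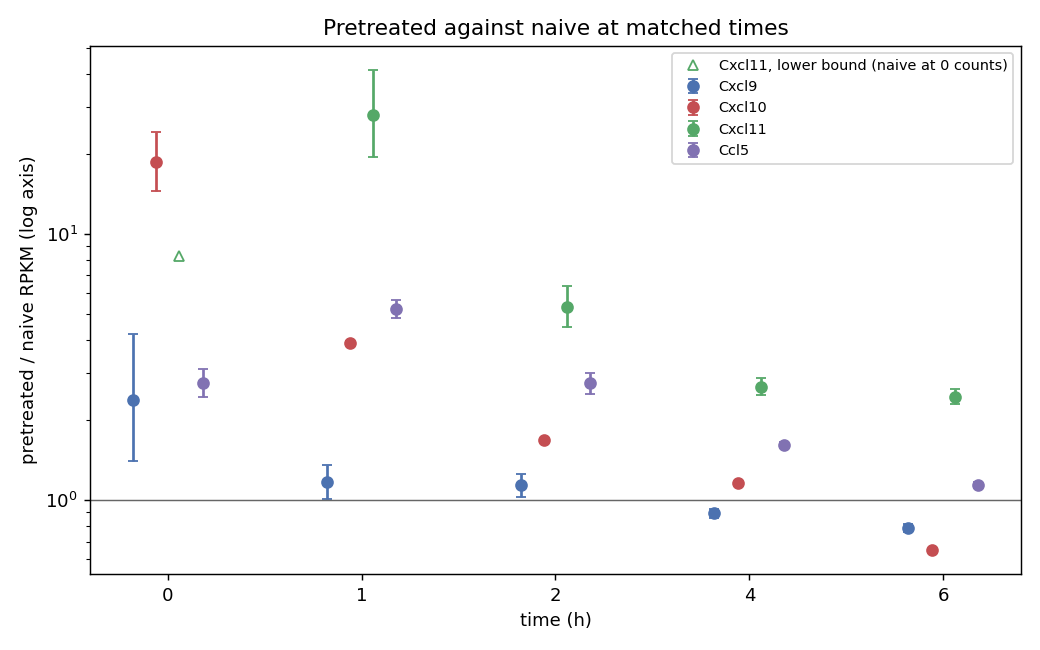
Ratio of pretreated to naive RPKM (log axis) at each time in h, 1 library per arm, for Cxcl9, Cxcl10, Cxcl11 and Ccl5, with 95% counting intervals as bars. The open triangle is the lower bound for Cxcl11 at 0 h; the ratios of Cxcl10 run from 18.6 at 0 h to 0.653 at 6 h and those of Cxcl11 from 27.9 at 1 h to 2.45 at 6 h.

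Over the 4 stimulated times together, none of the 4 members passed the test between the arms, which called 7 genes in all (0.0575%). The log2 difference, pretreated against naive, was 2.25 for Cxcl11 (SE 0.56), 1.14 for Ccl5 (SE 0.36), 0.55 for Cxcl10 (SE 0.40) and -0.053 for Cxcl9 (SE 0.13). The adjusted p of edgeR was 0.190, 0.240, 0.565 and 0.881, and the unadjusted p was 0.00652 for Cxcl11 and 0.0179 for Ccl5. DESeq2, which called 725 genes, called Cxcl11 (2.37, adjusted p = 0.0311), whereas over the alternatives tried its adjusted p ran up to 0.484. Without the pretreated 1 h and 4 h libraries edgeR called 0 genes (1075 at an unadjusted p under 0.05), and the differences were 1.80 for Cxcl11, 0.78 for Ccl5, 0.04 for Cxcl10 and -0.11 for Cxcl9. All 4 pairs of libraries matched by time put Cxcl11 and Ccl5 higher in pretreated cells, 3 of 4 pairs put Cxcl10 higher and 2 of 4 put Cxcl9 higher.

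Whether the change from 0 h differed between the arms was tested as an interaction. The log2 differences in change were -3.66 for Cxcl10 (SE 0.99), -1.31 for Cxcl9 (SE 0.42) and -0.32 for Ccl5 (SE 0.79), negative where pretreated cells gained less. None passed edgeR's test (adjusted p = 0.653, 0.732 and 0.962). It called 0 genes (0%), with 741 at an unadjusted p under 0.05, against 133 in DESeq2 and 15 in limma. DESeq2 called Cxcl10 (-3.66, adjusted p = 0.0177). Without the pretreated 1 h and 4 h libraries the values in edgeR were -4.18 for Cxcl10, -1.37 for Cxcl9 and -0.68 for Ccl5, and it called 0 genes (433 at an unadjusted p under 0.05). For Cxcl11 the sign depended on the scale, at -6.21 (SE 5.74) in edgeR and 1.24 in limma on log2(RPKM + 1), neither past the threshold, and no direction is drawn from it.

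Comparing an hour of restimulation with 2 h of first stimulation separated the members into pairs. In pretreated cells at 1 h, Cxcl11 stood at 4.08-fold (3.43 to 4.88) and Ccl5 at 3.99-fold (3.69 to 4.33) of the naive 2 h level. Cxcl10 stood at 0.584-fold and Cxcl9 at 0.355-fold (0.315 to 0.401) of it. The pretreated 1 h library is 1 of the 2 that stand apart, and the part of this in the ratios was not tested.

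Other chemokine genes rose as well. Of 8 other CC or CX3C chemokine genes past the filter, edgeR called 4 higher and 0 lower, with a median log2 change of 1.13 against -0.01 over all genes, of which 19.9% were called higher and 20% lower. They were the monocyte and eosinophil attractants Ccl2 (1.91, adjusted p = 0.0199), Ccl7 (2.28, adjusted p = 0.00500), Ccl8 (3.62, adjusted p = 0.0181) and Ccl11 (5.11, adjusted p = 0.00798). Of 8 other CXC genes, 2 were called higher and 1 lower, with a median of -0.04, a share of calls near the 39.9% over all genes. The B cell attractant Cxcl13 (5.94, adjusted p = 0.0114) and the membrane-bound Cxcl16 (0.61, adjusted p = 0.0399) rose and Cxcl14 fell by 1.003 (adjusted p = 0.0335). The difference between the classes was not tested. Ccl8, Ccl11, Cxcl13 and Cxcl15 lay below 1 RPKM in both 0 h libraries and passed the filter only through stimulated libraries. The counts and medians of both classes therefore lean toward rises. Cxcl10 made up 0.0724% of the summed RPKM of 38 chemokine genes in naive cells at 0 h and 41.0% at 6 h, and at most 46.7%, in pretreated cells at 2 h. At 6 h in pretreated cells its share was 24.9%, below that of Ccl2, which read 932 RPKM. Cxcl9 and Cxcl11 together never reached 1% of the sum.

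**Figure D5:**
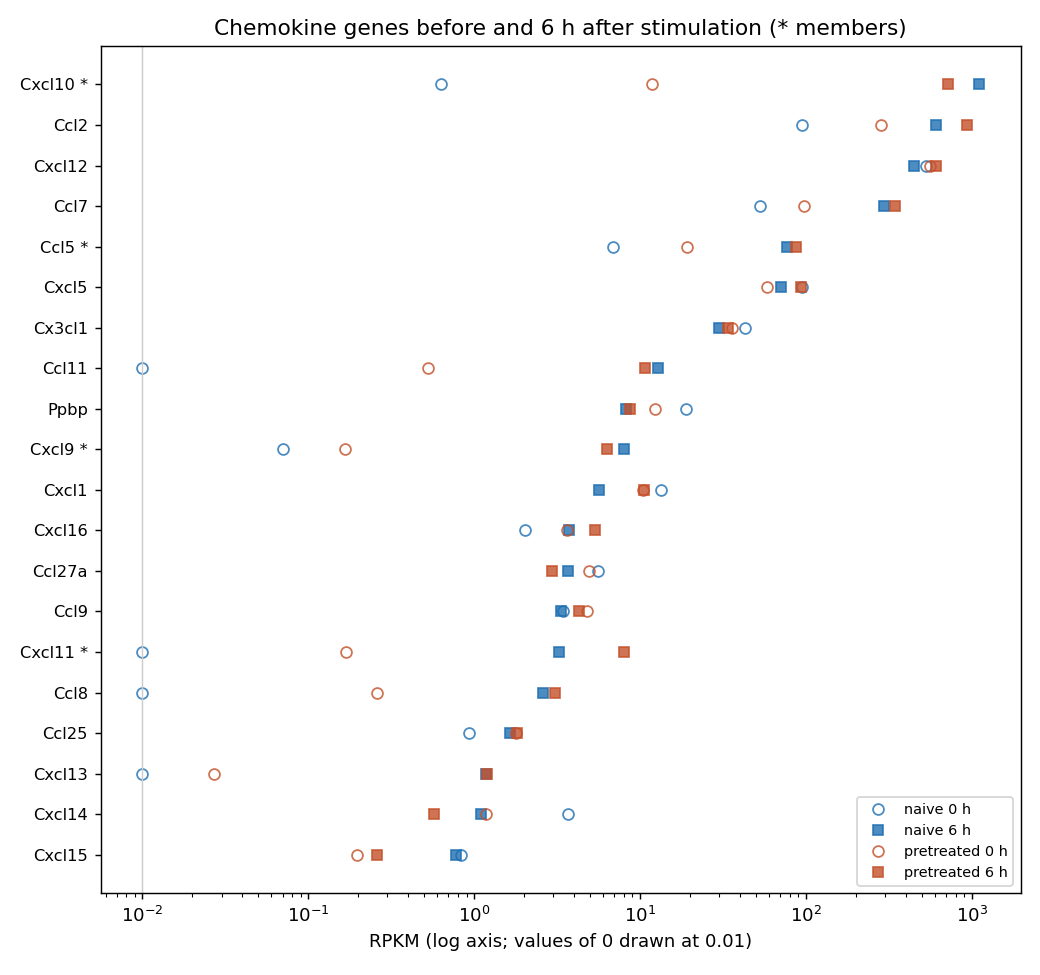
RPKM (log axis) of the 4 members, marked with an asterisk, and of 16 other chemokine genes past the filter, ordered by the naive 6 h value. Open circles are 0 h and filled squares 6 h, blue for naive and orange for pretreated libraries, 1 library each, and values of 0 are drawn at 0.01; Cxcl10 spans from 0.631 to 1101 RPKM in the naive arm, while the abundant stromal chemokine Cxcl12 lies at 447 RPKM or above in all 4 libraries.

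Of 10 chemokine receptor genes listed, 6 were in the table under these symbols and 0 passed the filter, and Ackr3 was not among the 6. Cxcr3, the receptor of the CXC members, read at most 0.008 RPKM in any library, and Ccr1 and Ccr3, receptors of CCL5, at most 0.117 and 0.013 RPKM. Of 17 genes for interferon receptors, JAK kinases, STATs and IRFs, 16 passed the filter. Of these 7 were called higher in stimulated cells and 2 lower, with a median of 0.75, beside 19.9% and 20% of all genes. The rises included Irf1 (2.01, adjusted p = 0.00575) and Irf5 (3.34, adjusted p = 0.00684). Irf1, an early transcription factor known to act on Cxcl9 and Cxcl10, read 18.5 and 27.9 RPKM at 0 h in naive and pretreated cells and 205 and 135 RPKM at 1 h. Irf7, a factor of the interferon response itself, stood at 180 RPKM in pretreated cells before restimulation against 2.22 RPKM in naive cells. By 6 h it read 310 RPKM in pretreated and 295 RPKM in naive cells. Irf7 did not pass edgeR's stimulation test (2.30, adjusted p = 0.178), which fits 1 change for both arms. A gene whose rise differs between the arms can fail it although it rose strongly in naive cells.

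Of 14 NF-kB subunits, kinases and inhibitors, 7 were called higher and 1 lower, beside 19.9% and 20% of all genes, with a median of 0.32. The feedback inhibitor Tnfaip3 rose by 1.11 (adjusted p = 0.00757) and the subunit gene Rela fell by 0.38 (adjusted p = 0.0406). Among 10 genes for proteins that act on mRNA decay, 3 were higher and 1 lower, with a median of 0.02, a share of calls like the 39.9% over all genes. Pnpt1, an RNA exonuclease of mitochondria, rose by 2.41 (adjusted p = 0.00500) and Khsrp, which binds AU-rich elements, fell by 0.76 (adjusted p = 0.0102). Of 17 genes for proteases and heparan sulfate proteins that cut or hold chemokines, 6 rose and 2 fell, beside 39.9% of all genes called, with a median of 0.17. Mmp13, a collagenase, rose most of these (3.19, adjusted p = 0.00702). For comparison with well-known interferon targets, 7 of 8 Gbp genes and 2 of 3 Ifit genes were called higher, with medians of 4.52 and 4.54. Gbp3 and Ifit3 were not called, though both rose in each arm. From 0 to 6 h Gbp3 went from 0.538 to 227 RPKM in naive and from 39.2 to 194 RPKM in pretreated cells. Ifit3 went from 1.38 to 1262 RPKM and from 167 to 987 RPKM. In the other 3 tests none of the genes of these lists was called, which is to be read beside the 0, 7 and 0 genes those tests called in all.

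The neighbours that passed the filter changed less than the members did. Around the chromosome 5 cluster, 4 genes within 100 kb passed the filter, and edgeR called Naaa (0.70, adjusted p = 0.00871), Sdad1 (0.84, adjusted p = 0.00498) and Scarb2 (0.91, adjusted p = 0.00708) higher, while Nup54 changed by 0.16 (adjusted p = 0.170). Over all genes 19.9% were called higher and 39.9% in either direction, and whether these few neighbours differ from that was not tested. Art3 spans Cxcl10 and Cxcl11 and did not pass the filter, though it read 0.014 RPKM at 0 h and 0.498 RPKM at 6 h in naive cells. The sources used here do not say whether the counting used strand, so reads of Art3 and of the chemokine genes inside it cannot be told apart. Around Ccl5, 5 genes passed, and 1700020L24Rik (0.56, adjusted p = 0.0197) and Mmp28 (0.60, adjusted p = 0.0232) were called higher, 2 of 5 being near the 39.9% of all genes called. Gm11435, nearest to Ccl5 at 3.6 kb, did not pass the filter and read 0 RPKM at 0 h and 0.273 RPKM at 6 h in naive cells. Ccl9, the nearest chemokine gene to Ccl5 that passed the filter, changed by -0.043 (adjusted p = 0.817).

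Likeness of the 4 courses to those of other genes was taken as Pearson's r of log2(RPKM + 1) over the 10 libraries. It is given as a description, since libraries of the same time or of the same arm are not independent. Cxcl10 was most like the antiviral GTPase gene Mx1 (r = 0.991), followed by Casp4 (0.982), Daxx (0.980), Trim21 (0.978) and Gm12185 (0.975). Cxcl9 was most like the histidine decarboxylase gene Hdc (0.987), Prm1 (0.985), Nlgn2 (0.981) and Tmem184b (0.979). Cxcl11 was most like Nucb2 (0.978), Tec (0.977), Arpc5 (0.960), Slc4a7 (0.960) and Chodl (0.957), whose levels spanned much less. Ccl5 was most like Plac8 (0.988), the complement genes C1ra (0.983) and C1rb (0.980), C920025E04Rik (0.972) and Trp53i11 (0.970). Plac8 read 8.69, 34.7, 20.7, 98.6 and 61.3 RPKM over the pretreated times, higher at 1 h and 4 h than at the times beside them as Ccl5 was. Between members, r was highest for Cxcl11 and Ccl5 (0.909) and lowest for Cxcl10 and Ccl5 (0.711), and between the neighbours Cxcl9 and Cxcl10 it was 0.825. This scale flattens changes below 1 RPKM, where Cxcl9 and Cxcl11 lay at 0 h in both arms and at 1 h in naive cells. The order of these r values may depend on it, and no other scale was tried for r.

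Leukocytes were looked for because they make these chemokines too. Of 10 fibroblast markers 9 passed the filter, and their RPKM summed to between 9230 and 13500 in a library. The macrophage list had 2 of 8 measured markers past the filter, Cd68 and Cd14, with the sum of the list between 6.59 and 8.95 RPKM in naive and 7.45 and 12.5 RPKM in pretreated libraries, and Emr1 was at 0 in all 10. Of the T and natural killer cell list 1 of 9 passed, Lck, which rose by 1.29 (adjusted p = 0.00704) and read 0.665 to 2.38 RPKM, while Cd3e, Cd3g and Ncr1 were at 0 throughout. The dendritic, B cell and neutrophil lists had 0 markers past the filter, with Flt3 and S100a9 at 0 in every library.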

How the data were processed

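Total RNA of 10 MEF libraries was sequenced on an Illumina HiSeq2000, 1 library per arm and time. Bowtie, TopHat, Cufflinks 1.2.1 and the build mm10 appear, without roles, in the submitters' processing notes. Per the file headers, the deposited table gives a tag count and an RPKM per RefSeq transcript and library. The counts were deposited unnormalised. The deposited RPKM is a rescaled count: over 7630 genes above 5 RPKM it deviated from the count times 1 factor per library and gene by at most 0.000253 (log2), and from rows with 1 exon its lengths were found to be exonic (2905, 1100, 1585 and 531 bases for Cxcl9, Cxcl10, Cxcl11 and Ccl5). Of 30646 rows, 15 named no gene (0.0158% to 0.0193% of counts) and were left out. The sources used here do not give the counting tool, strand use or handling of multiply aligned reads.

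Genes that reached 1 RPKM in 2 or more libraries were tested on counts with edgeR 4.0.16 (glmQLFit, TMM) in R 4.3.3, two-sided, at an adjusted p of 0.05. Stimulation and the first hour were contrasts of time point + arm over 10 libraries (4 residual degrees of freedom), the arms were compared over the 8 stimulated libraries (3), and the difference in induction was a term of arm by stimulation (3). SE is the log2 fold change over the root of F. Alternatives were DESeq2-type size factors, no filter, DESeq2 1.42.0, limma 3.58.1 on log2(RPKM + 1) and log2(RPKM + 0.1), and each library left out. Leaving out the pretreated 1 h and 4 h libraries together was added after the data were seen. The fits were tested on simulated counts with the spread trend of the stimulation fit. Of 2-fold changes, 88.1% were recovered for stimulation, 61.2% for the first hour and 95.5% between the stimulated arms. The test of the difference in induction recovered 10.4% of 2-fold and 89.4% of 4-fold changes. Whether these shares hold for the measured genes was not tested. In the data, edgeR's test of the difference in induction did not call Cxcl10 at -3.66 (SE 0.99, adjusted p = 0.653). Ifit1 at -5.68 (SE 0.52, adjusted p = 0.0516) was not called either. Cxcl10 at 5.84 in the first hour also went uncalled. The 0 calls of the test of the difference in induction thus say little about changes near 2-fold or of these larger sizes. Ratios of single libraries carry exact 95% binomial or Poisson intervals of counting error, and 0 counts were set to 3. PCR copies are not independent molecules.

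The members, lists, tests and alternatives were chosen with earlier results of these data known. Named were the members, the 5 genes most like each, every gene within 100 kb and members of the lists; some of these are not reported here. H19, Igfbp2 and Fmod were chosen after their values were seen. RefSeq's tables gave promoters and gene types, and the GENCODE M21 annotation of GRCm38 the Cxcl11 frame.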

Additional observations from a re-analysis of the deposited data

Results flagged for a closer look

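In 3 steps between successive times the arms moved in opposite directions with counting intervals that left out 1 in both, each in 1 library per arm and time, and the difference was not tested. Cxcl10 went from 2 to 4 h to 1.25-fold (1.24 to 1.26) in naive and 0.868-fold (0.862 to 0.873) in pretreated cells, a difference of -0.53 on the log2 scale. From 4 to 6 h it went to 1.05-fold (1.04 to 1.05) and 0.587-fold (0.584 to 0.590), a difference of -0.83. Ccl5 went from 1 to 2 h to 1.31-fold (1.18 to 1.45) and 0.689-fold (0.649 to 0.731), a difference of -0.92. Ccl5 also went from 4 to 6 h to 0.724-fold (0.707 to 0.742) in pretreated cells, where the naive 1.03-fold (0.999 to 1.06) did not leave out 1. Each of these steps uses the pretreated 1 h or 4 h library, in which H19 read 43.7 and 44.4 RPKM against 9.19 to 9.78 RPKM at 0, 2 and 6 h, and its part in the result was not tested. For Cxcl10, the change from 2 to 6 h uses neither and was 1.31-fold in naive and 0.509-fold in pretreated cells.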

How the results depend on the processing

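With each arm and time sequenced once, calls rest on single libraries, above all those of 0 h. For stimulation, all 4 members stayed past the threshold under the other size factors, no filter, DESeq2, both limma fits and without the pretreated 1 h and 4 h libraries, and the count of 4859 genes ran from 4105 (without those libraries) to 5619 (DESeq2). Leaving out each library in turn, the count ran from 8 (without naive 0 h) to 4983, with 2075 without pretreated 0 h and 3222 without naive 6 h. The values ran from 5.05 to 6.36 for Cxcl9, 6.85 to 10.5 for Cxcl10, 5.68 to 11.9 for Cxcl11 and 2.11 to 2.56 for Ccl5. Without pretreated 0 h no counts of Cxcl11 remain at 0 h, so 11.9 depends on the prior count.

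For the first hour, the count of 0 became 5 without a filter, 236 in DESeq2 and 5 and 1 in limma with pseudocounts of 1 and 0.1, and 0 to 24 leaving out 1 library (24 without pretreated 0 h, 1 without pretreated 1 h). Cxcl9 passed without a filter (2.84, adjusted p = 0.0493, edgeR), in DESeq2 (2.87) and without pretreated 0 h (3.68, adjusted p = 0.0255, edgeR), with a range of 2.36 to 3.68. Leaving out 1 library, Cxcl10 ran from 4.84 to 8.51, Cxcl11 from 1.89 to 10.0 and Ccl5 from 0.19 to 1.64, none past the threshold. In DESeq2, Cxcl10 (5.88) and Cxcl11 (4.48) passed too. Between the stimulated arms, the count of 7 became 49 without a filter, 725 in DESeq2, 12 and 14 in limma, 0 without the pretreated 1 h and 4 h libraries and 1 to 3 leaving out any 1 library. Cxcl11 passed in DESeq2 (2.37), and Cxcl9 ran from -0.14 to 0.080, positive without naive 6 h (0.079) or pretreated 6 h (0.080). Cxcl10 ran from 0.10 to 0.97, Cxcl11 from 1.66 to 2.69 and Ccl5 from 0.75 to 1.51.

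For the difference in induction, the count of 0 became 28 without a filter, 133 in DESeq2 and 15 in both limma fits, and stayed at 0 leaving out 1 library. Cxcl10 passed in DESeq2 (-3.66). Cxcl11 turned positive in limma (1.24 and 0.82). Ccl5 ran from -0.72 to 0.038, positive without naive 6 h (0.038) or pretreated 6 h (0.035). This term could not be fitted without a 0 h library. At 0 h, the log2(RPKM + 1) scale moved the arm difference of Cxcl9 from 1.25 to 0.13 and of Cxcl10 from 4.22 to 2.96. The pseudocount exceeds both values of Cxcl9 and the naive value of Cxcl10 there. The cause of the other shifts was not tested. Low counts limit Cxcl9 and Cxcl11 at 0 h most, with 19 and 0 counts in naive cells. No paired analysis was possible because the labels give each group 1 library and no shared replicate numbers, apart from the matching by time that the fits between the arms already hold.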
